A study of Mus musculus with 10 samples.

Results

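The DNA damage checkpoint genes Atm, Atr, Chek1, Chek2, Trp53, Mdc1, Topbp1, Brca1, Hus1b and Rad9b were examined in mouse testis, 10 genes chosen by name out of the 28125 rows of an scRNA-seq matrix and the 30670 rows of an scATAC-seq matrix. All 10 were found in both matrices. Nuclei were taken from testes of wild-type mice aged 11, 17 or 25 days postpartum (dpp), and of Cre/+ and Nfya-CKO adults aged 8 weeks. Each condition and assay has 1 library. Each sample of nuclei gave both an RNA and an open-chromatin library. Nfya encodes a subunit of NF-Y, a factor that binds CCAAT boxes. In Nfya-CKO mice, Stra8-Cre, active in spermatogonia, removes exons of a floxed Nfya gene, and Cre/+ mice carry the Cre alone. The sources used here do not say how many animals were pooled per library.

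The matrices hold 1 value per gene in each of 13 cell populations, pooled over libraries: undifferentiated and differentiating spermatogonia (undiff. SpG, diff. SpG), preleptotene (pL), 2 leptotene to early pachytene groups (eL/L/Z, L/Z/eP), mid to late pachytene (mP/lP), diplotene (D), round and elongating spermatids (RS, ES), spermatogonia of the library labelled Nfya-CKO (SpG Nfya-CKO), Sertoli cells, other somatic cells and an unknown group. RNA levels are given as mean UMIs per 10000 UMIs of a cell. They are not corrected for gene length, so a level is compared between populations and not between genes. Brackets hold 95% Poisson counting intervals, which cover counting error only and no spread between animals. With 1 library per condition there was no test and no p-value, and genes were called by size alone, as at least 2-fold apart on the log2(value + 0.1) scale. That scale understates fold changes of weakly expressed genes.

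Checkpoint signalling starts at 2 related kinases. ATM responds to double-strand breaks and ATR, with its activator TOPBP1 and the 9-1-1 clamp, to single-stranded DNA. MDC1 and BRCA1 relay the signal on chromatin, and the effector kinases CHK1 and CHK2 and the transcription factor p53 act on the cell cycle and on cell death. In male meiosis, programmed breaks call on ATM, and ATR, TOPBP1, BRCA1 and MDC1 work on unsynapsed chromosomes and on the silenced X and Y. RAD9B and HUS1B are paralogs of the clamp subunits RAD9A and HUS1.

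The populations differed in depth and in the libraries behind them. They held 99 to 8107 scRNA-seq cells, with 1292 in undiff. SpG and 491 in SpG Nfya-CKO, and the median depth ran from 1525 UMIs per cell in other somatic cells to 18361 in SpG Nfya-CKO. Of scATAC-seq cells assigned to a population, ES held 124 and the other germ populations 760 to 5805. In diff. SpG, 84.5% of cells (exact Clopper-Pearson 95% interval 82.0 to 86.7) came from the Cre/+ library, and in L/Z/eP 93.5% (93.0 to 94.1) came from 25 dpp, so that stage, age and library cannot be told apart. The Cre/+ and Nfya-CKO scRNA-seq libraries shared 3813 cell barcodes, 74.0% of the Nfya-CKO cells, and the 3 wild-type libraries shared 621 to 853 per pair. The deposited means could not be recomputed without these cells. In ES 56.9% of cells, and in other somatic cells 51.8%, were the shallower of such a pair, against 0% in SpG Nfya-CKO. The share was 21.8% in eL/L/Z, 19.2% in the unknown group, 15.6% in diff. SpG and 3.18% or less in the rest. Marker genes mostly peaked in the populations named for them, with exceptions such as Id4, which was highest in mP/lP, and Clu and Rhox5, Sertoli markers that were highest in other somatic cells. Summed Leydig cell markers stood at 48.4 per 10000 in SpG Nfya-CKO against 0.172 in undiff. SpG, and spermatid markers at 6.79 in diff. SpG against 0.429 in undiff. SpG. Nfya RNA was 0.456 in undiff. SpG and 1.11 in SpG Nfya-CKO. The matrix does not resolve the deleted exons, so this value checks nothing about the deletion.

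Which checkpoint genes change their RNA as germ cells enter and pass through meiosis? Along the 9 germ populations the members split. Atr, Mdc1 and Rad9b were at least 2-fold higher in mP/lP than in undiff. SpG, as were 13.9% of the 15250 genes compared. Atm, Chek1, Chek2, Trp53 and Brca1 were at least 2-fold lower, as were 20.8% of genes. Topbp1 and Hus1b were within 2-fold. With 0.5 added instead of 0.1, or with L/Z/eP in place of mP/lP, 4 members rather than 8 were past 2-fold. Over the 9 populations, 5 members (Atm, Chek1, Chek2, Trp53 and Topbp1) were highest before meiosis, in undiff. SpG, diff. SpG or pL, as were 42.7% of genes. With SpG Nfya-CKO added this held for 3 members (29.9% of genes), and over all 13 populations for 3 (21.5% of genes). From mP/lP to RS the split turned for part of the set. Chek1 and Brca1 were at least 2-fold higher in RS (17.6% of genes), whereas Atr, Mdc1 and Rad9b were at least 2-fold lower (9.36% of genes). With 0.5 added, 3 members rather than 5 were past 2-fold over this span. These spans were chosen after the step-by-step values had been seen. All 10 members had a mean of at least 0.05 per 10000 over the 13 populations and entered the comparison. Hus1b, with a mean of 0.0585, lay just inside that limit.

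Between neighbouring stages few members were 2-fold apart. The first step, from undiff. to diff. SpG, held 1 member higher (Atr, among 9.57% of genes) and 0 lower (6.28%). The next 3 steps held 0 members. The share of genes higher and lower was 1.27% and 10.9% from diff. SpG to pL, 4.41% and 0.59% to eL/L/Z, and 5.45% and 3.97% to L/Z/eP. From L/Z/eP to mP/lP, 1 member was lower (Atm, among 3.54% of genes) and 0 higher (1.38%), and from mP/lP to D there were 0 (4.92% and 0.184%). From D to RS, Brca1 was higher (10.6%) and Mdc1 lower (3.34%), and from RS to ES, Trp53 was higher (10.1%) and Brca1 lower (10%).

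**Figure D1:**
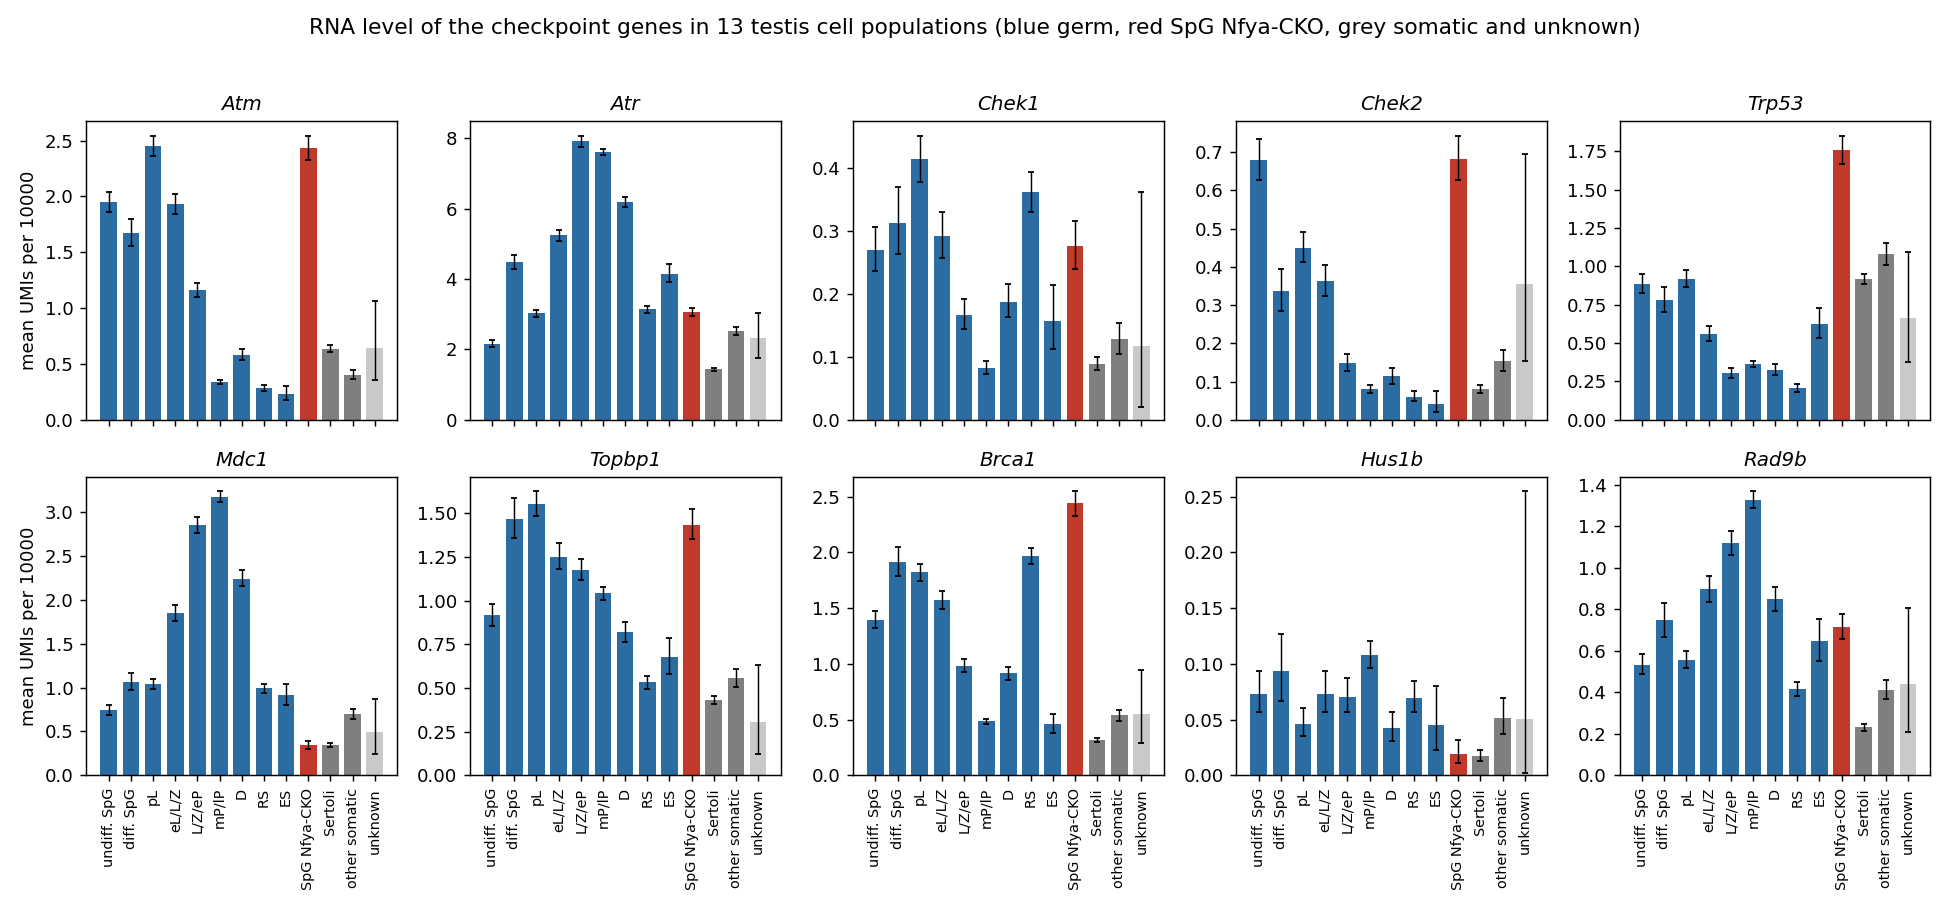
RNA level in mean UMIs per 10000 (vertical axes, each from 0 on its own scale) of each checkpoint gene in the 13 populations, with bars for levels and whiskers for 95% counting intervals. Atr, Mdc1 and Rad9b are highest around pachytene, at 7.92, 3.17 and 1.33, whereas among the 9 germ populations Atm and Chek2 are lowest from mP/lP to ES.

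Of the apical kinases, Atm was highest in pL and Atr in L/Z/eP. Atm, the double-strand break kinase, was at 1.95 per 10000 in undiff. SpG, 1.67 in diff. SpG and 2.45 in pL, its highest level (2.36 to 2.54). It then stood at 1.93 in eL/L/Z, 1.16 in L/Z/eP, 0.338 in mP/lP, 0.584 in D, 0.281 in RS and 0.232 in ES. The RNA of Atm was thus 10.6-fold higher (8.15 to 14.0) in pL than in ES, and on the log2(value + 0.1) scale the step from L/Z/eP to mP/lP was the only step past 2-fold for this gene. Atr, the single-stranded DNA kinase, was lowest in undiff. SpG at 2.16 (2.06 to 2.26). It was at 4.48 in diff. SpG, 3.03 in pL, 5.24 in eL/L/Z, 7.92 in L/Z/eP, 7.61 in mP/lP, 6.20 in D, 3.14 in RS and 4.16 in ES. Its highest level was 3.67 times its lowest (3.49 to 3.85). The Atr level was lower again in pL than in diff. SpG. The diff. SpG group is the one with 6.79 per 10000 of spermatid markers, and the part of other cells' RNA in its Atr level was not tested.

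The mediators and the activator of ATR did not share 1 pattern. Mdc1, which docks on phosphorylated histone H2AX, was at 0.746 in undiff. SpG, 1.07 in diff. SpG, 1.04 in pL, 1.85 in eL/L/Z, 2.85 in L/Z/eP, 3.17 in mP/lP, 2.24 in D, 0.991 in RS and 0.913 in ES. Its level was 4.25 times as high (3.93 to 4.61) in mP/lP as in undiff. SpG. Topbp1 was highest in pL at 1.56 (1.49 to 1.63), not distinguishable from 1.47 in diff. SpG by counting error. The level of Topbp1 was 0.919 in undiff. SpG, 1.253 in eL/L/Z, 1.18 in L/Z/eP, 1.04 in mP/lP, 0.820 in D, 0.532 in RS and 0.676 in ES. No single step was past 2-fold for Topbp1. Brca1, an E3 ligase subunit of homologous recombination, had 2 maxima. It was at 1.40 in undiff. SpG, 1.91 in diff. SpG, 1.82 in pL, 1.57 in eL/L/Z, 0.984 in L/Z/eP, 0.484 in mP/lP, 0.915 in D, 1.97 in RS and 0.461 in ES. The RS level, 4.06 times that in mP/lP (3.81 to 4.33), could not be set apart from the level in diff. SpG by counting error.

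The effector kinases were weakly detected in pachytene. Chek1, the main effector of ATR, was highest in pL at 0.413 (0.378 to 0.451), at 0.270 in undiff. SpG, 0.313 in diff. SpG, 0.292 in eL/L/Z and 0.167 in L/Z/eP. Its minimum, in mP/lP, was 0.0820 (0.0721 to 0.0929), followed by 0.188 in D, 0.361 in RS and 0.157 in ES. The RS level of Chek1 was 4.40 times that of mP/lP (3.77 to 5.15), and in Brca1 too RS was above mP/lP. Chek2, the main effector of ATM, was highest in undiff. SpG at 0.679 (0.626 to 0.736). Its other levels were 0.336 in diff. SpG, 0.451 in pL, 0.363 in eL/L/Z, 0.149 in L/Z/eP, 0.0796 in mP/lP, 0.114 in D, 0.0609 in RS and 0.0409 in ES. The span from undiff. SpG to ES was 16.6-fold (9.03 to 34.5), an interval that overlaps that of Atm. On the log2(value + 0.1) scale the span of Chek2, 2.47, was narrower than the 2.94 of Atm. With 0.01 added this order turned, at 3.76 for Chek2 and 3.35 for Atm. RS and ES were not distinguishable by counting error for Chek2. Trp53, which encodes p53, was at 0.887 in undiff. SpG, 0.781 in diff. SpG, 0.920 in pL, 0.562 in eL/L/Z, 0.303 in L/Z/eP, 0.364 in mP/lP, 0.328 in D, 0.207 in RS and 0.625 in ES. The pL and undiff. SpG levels of Trp53 overlapped within counting error, and its highest level was 4.44 times its lowest (3.90 to 5.07). ES rests on 1195 cells, nearly all from the Cre/+ library, and its summed Leydig and Sertoli markers were 5.56 and 33.4 per 10000 against 0.759 and 3.25 in RS. Their part in these steps was not tested.

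Of the clamp paralogs, Rad9b was highest in mP/lP at 1.33 (1.29 to 1.37). It stood at 0.533 in undiff. SpG, 0.746 in diff. SpG, 0.556 in pL, 0.897 in eL/L/Z, 1.12 in L/Z/eP, 0.848 in D, 0.415 in RS and 0.647 in ES. Rad9a, the paralog expressed widely in the body, was highest in undiff. SpG at 0.138 (0.114 to 0.164) and lower in the other 8 germ populations, with 0.0512 in diff. SpG, 0.0577 in mP/lP (0.0494 to 0.0670) and 0.0386 in L/Z/eP. In ES it rested on under 3 effective UMIs. Hus1b was the least detected member. Its levels lay between 0.0422 in D (0.0308 to 0.0564) and 0.108 in mP/lP (0.0967 to 0.121), and 7 of the 8 neighbouring pairs in its order of levels were not apart by counting error. Hus1b is a gene of 1 exon that lies within Exoc2 on the same strand of chromosome 13 (GRCm38, 30946573 to 30947759) and overlaps none of the annotated exons of Exoc2. Exoc2 RNA stood at 0.668 to 1.17 per 10000 in the germ populations, and how reads of unspliced Exoc2 RNA were assigned is not given in the sources used here, so the Hus1b levels are uncertain. Its paralog Hus1 was at 0.366 in undiff. SpG, 0.236 in mP/lP and 0.117 in RS. Rad9b overlaps Pptc7 on the opposite strand and Atr overlaps 2 antisense transcripts. The level of Pptc7 was 0.368 to 0.835 per 10000 in the germ populations, with 0.835 in pL and 0.658 in RS, where Rad9b was at 0.556 and 0.415. Whether counting used strand is not given in the sources used here, so the Rad9b levels are uncertain. Both transcripts antisense to Atr were at or below 0.169 per 10000 in the germ populations, whereas Atr was at 2.16 or more.

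Likeness between the profiles of the members was measured as the Pearson correlation of log2(value + 0.1) over the 9 germ populations. These populations share libraries and are no replicates, so the values are descriptive. Atr, Mdc1 and Rad9b correlated with each other at 0.90 to 0.93, Atm with Chek2 at 0.94, and Chek1 with Brca1 at 0.93. Of the other 3 members, Topbp1 was most like Atm (0.80), Trp53 most like Chek2 (0.74) and Hus1b most like Rad9b (0.42). The most opposed pair was Chek1 and Rad9b at -0.76, but this value rests on the choice of populations. Over all 13 it was 0.04, the other correlations of Chek1 and Brca1 with Atr, Mdc1 and Rad9b lay between -0.01 and 0.22, and the most opposed pair was Trp53 and Mdc1 at -0.73. Over all 15249 other genes compared, the 3 nearest profiles to Atr were those of Eloa (r = 0.98), Zhx1 (0.98) and Hnrnph3 (0.97), and to Mdc1 those of Rbm5 (0.99), Ulk2 (0.99) and Zc3h7a (0.99). Rad9b was nearest to Gpat2 (0.99), Map2k5 (0.98) and Alg8 (0.97). Such likeness was common for a gene like Atm, with 393 genes at r of 0.95 or more and B230354K17Rik, Rundc3b and Map7d2 nearest, and for Chek2, with 468 genes and Klf8, Etaa1 and Zfp420 nearest. It was rare for Brca1, with 10 such genes and Ctnnd2, Rnf121 and Fam208b nearest, for Rad9b and Chek1, with 11 each, and for Atr, with 14. Cdyl2, Dab2ip and Kdm6b were nearest to Chek1, Txn2, Ppp4c and Bcl10 to Trp53, and Plk4, Stxbp5 and Mon1b to Topbp1. Hus1b had no gene at 0.95, and its nearest, Psmg2, reached 0.79.

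**Figure D2:**
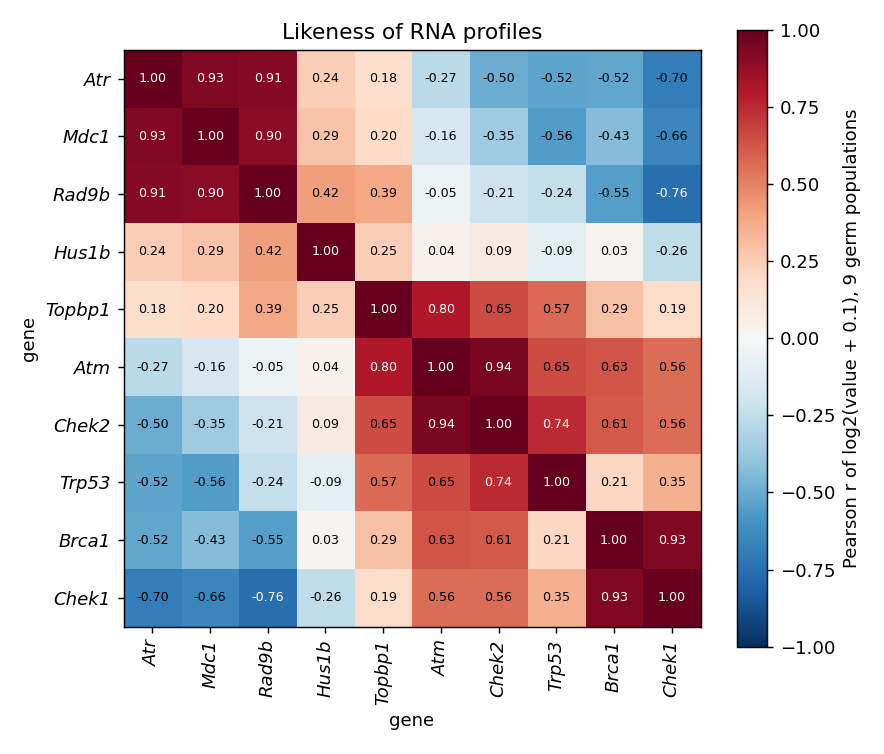
Pearson correlation of log2(value + 0.1) between the RNA profiles of the 10 genes over 9 germ populations (both axes list genes, colour gives r from -1 to 1). Atr, Mdc1 and Rad9b form a block at 0.90 or more, and Chek1 and Brca1, at 0.93, correlate negatively with it over these 9 populations, though not over all 13, where the 6 values run from -0.01 to 0.22.

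Other genes of the pathway, in 6 lists that hold the members too, split in the same comparison of mP/lP with undiff. SpG, in which 13.9% of all genes were higher and 20.8% lower. Among 8 apical kinases and their partners, 1 was higher (Atr) and 4 were lower, among them Etaa1, a second activator of ATR (0.0893 against 0.595 per 10000), and Prkdc, the DNA-PK kinase (0.363 against 1.33). Among 7 clamp and loader genes, only Rad9b passed 2-fold. Of 11 mediators, 2 were higher, Mdc1 and the histone gene H2afx (2.86 against 0.600), and 3 were lower, Brca1, the CHK1 adaptor Clspn (0.335 against 0.955) and the fork protein Timeless (0.367 against 0.860). Of 7 effector kinases and targets, 0 were higher and 4 were lower, Chek1, Chek2 and the phosphatase genes Cdc25a (0.266 against 0.856) and Cdc25c (0.116 against 0.396). Of 10 genes compared in the p53 axis, 0 were higher and 4 were lower, Trp53 and 3 of its known targets, Bax (0.380 against 1.67), Pmaip1 (0.0859 against 0.378) and Ccng1 (0.0493 against 0.241). Of 5 genes listed around asynapsis, the axis genes Hormad1 (3.33 against 0.493) and Hormad2 (2.57 against 0.832) were higher, and Ubr2 (0.570 against 2.29) and Trip13 (0.472 against 1.08) lower. The median log2 ratio was -1.16 for the apical list, -1.02 for effectors, -0.59 for the p53 axis, -0.29 for the clamp, 0.09 for mediators and 0.48 for the asynapsis list, against -0.14 over all genes.

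RNA of every member was also counted in the somatic populations. Other somatic cells carried germ cell markers, 2.30 per 10000 of summed pachytene and diplotene markers and 2.86 of spermatid markers, against 0.641 and 0.0113 in Sertoli cells, and the part of germ cell RNA in the somatic levels was not tested. The median germ population was above Sertoli cells for 9 of 10 members (60.9% of genes), and at least 2-fold above for Atr, Mdc1, Topbp1, Brca1 and Rad9b (18% of genes). Against other somatic cells, 2 members were at least 2-fold higher in germ cells, Atm and Brca1 (5.04% of genes). Trp53 was the exception against Sertoli cells, with a germ median of 0.562 per 10000, 0.916 in Sertoli cells and 1.08 in other somatic cells. Most Sertoli cells came from 11 dpp and most other somatic cells from the library labelled Nfya-CKO, so cell type and library cannot be told apart.

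Did checkpoint RNA differ in spermatogonia where Nfya was targeted? Against undiff. SpG, 0 of 10 members were at least 2-fold apart, where 4.09% of genes were higher and 3.08% lower. With 0.01 added instead of 0.1, 2 members were, Mdc1 and Hus1b, both lower. On the log2(value + 0.1) scale the member furthest below was Mdc1, at 0.345 per 10000 (0.305 to 0.389) against 0.746 (0.691 to 0.806), a ratio of 0.463 (0.400 to 0.534) without the added 0.1 and a log2 ratio of -0.93 with it. This level was below that of all 9 germ populations. The member furthest above on that scale was Trp53, at 1.76 (1.67 to 1.85) against 0.887 (0.826 to 0.951), a ratio of 1.98 (1.81 to 2.17) and a log2 ratio of 0.91. It was above all 9 germ populations and above the 1.08 of other somatic cells.

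Brca1 followed, at 2.44 against 1.40 (ratio 1.75, 1.63 to 1.88), also above all 9 germ populations. Topbp1 was at 1.44 against 0.919 (ratio 1.56, 1.43 to 1.71), Atr at 3.07 against 2.16 (1.42, 1.34 to 1.51), Rad9b at 0.713 against 0.533 (1.34, 1.18 to 1.51) and Atm at 2.43 against 1.95 (1.248, 1.17 to 1.33). For the 2 effector kinases the difference from undiff. SpG was within counting error. Chek1 was at 0.276 against 0.270 (ratio 1.02, 0.846 to 1.23) and Chek2 at 0.683 against 0.679 (1.01, 0.894 to 1.13). Hus1b was at 0.0191 (0.0107 to 0.0315) against 0.0733 (0.0566 to 0.0934), a ratio of 0.260 (0.138 to 0.462) (log2 ratio of -0.54 with 0.1 added) that rests on about 15 effective UMIs in SpG Nfya-CKO. Across the members, 2 were below all 9 germ populations (10.9% of genes) and 3 above (18.2% of genes), the third being Chek2 by a margin within counting error.

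The choice of control population mattered for these ratios. Undiff. SpG hold 50% of cells from 11 dpp and 7.89% from the age-matched Cre/+ library. On the log2(value + 0.1) scale, Trp53 was more than 2-fold higher than in diff. SpG (6.86% of genes) and Mdc1 more than 2-fold lower (10.5% of genes). Against pL only Mdc1 was past 2-fold on that scale, again lower (4.73% of genes, with 9.05% higher). The ratios that follow are without the added 0.1. Hus1b was at 0.204 of its diff. SpG level (0.105 to 0.378) and 0.412 of its pL level (0.217 to 0.739). Chek2 was 2.03 times as high as in diff. SpG (1.69 to 2.46) and 1.52 times as high as in pL (1.34 to 1.71), and Chek1 was at 0.667 of its pL level (0.566 to 0.783). Atr, at 4.48 in diff. SpG and 3.07 in SpG Nfya-CKO, changed sides with the control. Topbp1 did so under both, at 0.977 of its diff. SpG level (0.886 to 1.08) and 0.923 of its pL level (0.856 to 0.994). Rad9b was at 0.956 of its diff. SpG level (0.833 to 1.10) and Atm at 0.994 of its pL level (0.938 to 1.05), both within counting error. Summed markers of undifferentiated spermatogonia were 6.75 per 10000 in SpG Nfya-CKO and 11.3 in undiff. SpG. Of these, Zbtb16 and Id4 were lower and Gfra1 and Etv5 higher. Markers of other cells moved with the comparison too. Summed pachytene and diplotene markers were 0.409 per 10000 in SpG Nfya-CKO and 1.09 in undiff. SpG, Sertoli markers 23.7 and 3.10 (of these Clu alone gave 22.8 and Amh 0.0116), and all 4 Leydig markers were detected, Insl3 at 39.8. The part of these cells' RNA in the values was not tested.

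In the 6 pathway lists, 0 genes were at least 2-fold apart between SpG Nfya-CKO and undiff. SpG, where 4.09% of all genes were higher and 3.08% lower. Against diff. SpG the lists held Trp53 higher (6.86% of all genes) and Mdc1 and H2afx (0.303 against 0.977) lower (10.5% of all genes). Against pL they held Prkdc higher (2.25 against 0.958) and Mdc1, H2afx (0.303 against 0.784) and Hormad1 (0.447 against 1.31) lower. Of all genes, 9.05% were higher and 4.73% lower than in pL. Against undiff. SpG the list medians lay between -0.39 for effector kinases and targets and 0.36 for the p53 axis, against 0.01 over all genes.

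**Figure D3:**
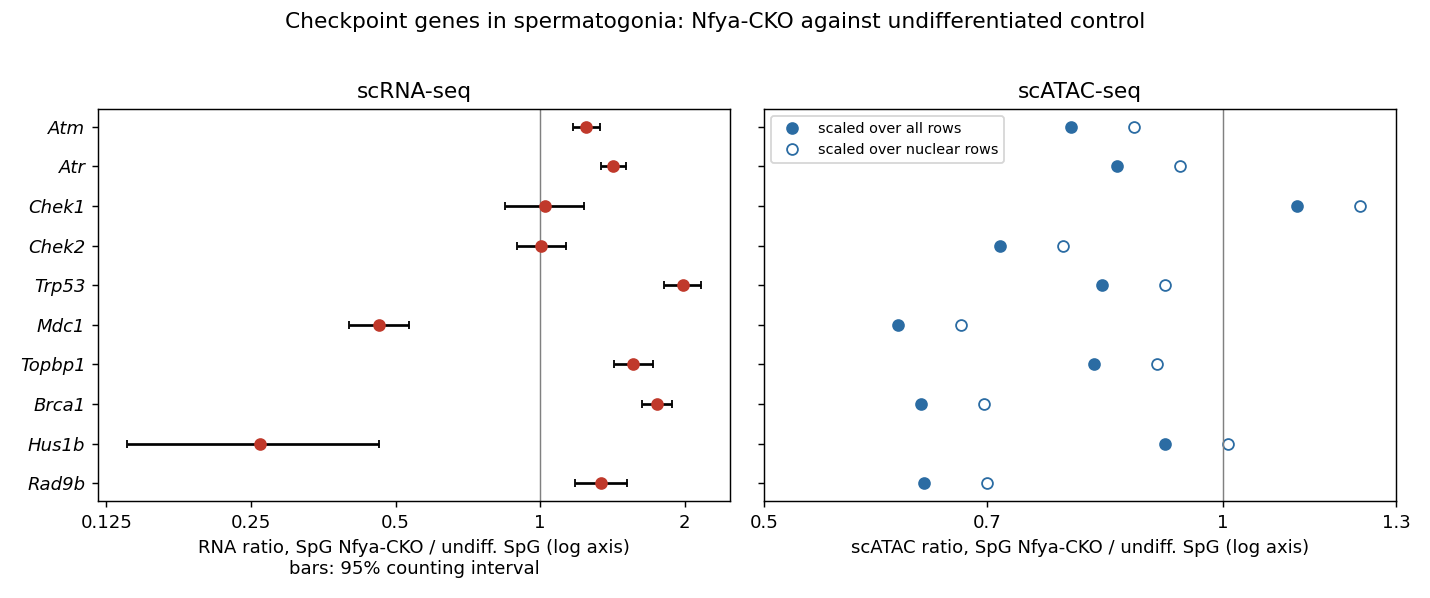
Ratio of SpG Nfya-CKO to undiff. SpG for each checkpoint gene (log axes), left for RNA with 95% counting intervals and right for scATAC-seq under both scalings, without intervals. RNA lies between 0.260 for Hus1b and 1.98 for Trp53, and scATAC values scaled over all rows between 0.612 for Mdc1 and 1.12 for Chek1.

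The scATAC-seq matrix gives 1 accessibility value per gene, expressed here per 1000000 of each population's summed signal. In SpG Nfya-CKO, 9 of 10 members had a lower value than in undiff. SpG, as had 52.6% of 29939 genes. The ratio was 0.8 or lower for 5 members (21.3% of genes), and 0 members were 25% or more above undiff. SpG (22.1% of genes). The largest differences were those of Mdc1, at 34.0 against 55.5 (ratio 0.612), Brca1, at 50.3 against 79.3 (0.634), and Rad9b, at 19.2 against 30.1 (0.637). Chek2 was at 40.5 against 56.8 (0.714), Atm at 42.5 against 53.5 (0.795), Topbp1 at 32.8 against 39.9 (0.823) and Trp53 at 61.5 against 73.9 (0.833). Atr was at 23.1 against 27.1 (0.852) and Hus1b at 15.1 against 16.5 (0.917). Chek1 alone was higher on this scale, at 34.3 against 30.7 (1.12). The members' median ratio was 0.809 and that of all genes 0.981. The members were not matched to genes of like signal. In undiff. SpG all 10 stood above the median gene of the nuclear genome, which was at 12.1. That median was 13.6 in SpG Nfya-CKO, 8.56 in diff. SpG and 9.81 in pL. The part of signal level in these shares and ratios was not tested. Mdc1, Brca1, Rad9b and Atr lay below all 9 germ populations (13.6% of genes). The unit of these values keeps no depth, so no interval is given. Against diff. SpG, 10 of 10 members had a lower value (54.7% of genes) and 8 were at 0.8 or lower (39.1%), with Mdc1 at a ratio of 0.377, Brca1 at 0.407 and Rad9b at 0.443. Against pL, 9 were lower (52.8%) and 8 at 0.8 or lower (36%), with Mdc1 at 0.359, Rad9b at 0.425, Brca1 at 0.441 and Hus1b above 1 at 1.20.

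RNA and accessibility ratios did not always lie on the same side. Of the 3 members with the lowest scATAC ratios, Mdc1 had less RNA, whereas Brca1 and Rad9b had more. The scale also matters, since 13 mitochondrial rows held 46.0% of the signal in SpG Nfya-CKO and 40.6% in undiff. SpG. Scaled over the 30657 nuclear rows instead, 8 of 10 members were below 1 (41.3% of genes) and 4 were at 0.8 or lower (13.7% of genes), and 6 lay below all 9 germ populations (18.8% of genes). Chek1, at 63.6, lay above all 9 (24% of genes). Mdc1 was then at 0.674, Brca1 at 0.697, Rad9b at 0.701 and Chek2 at 0.786, with a median of 0.890 over members and 1.07 over all genes.

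For 7 members, a neighbour read in the opposite direction starts within 1000 bp. The start of Atm lies 307 bp from that of Npat, Chek2 202 bp from Hscb, Trp53 104 bp from Wrap53, Topbp1 133 bp from 1300017J02Rik, Brca1 194 bp from Nbr1 and Rad9b 136 bp from Vps29. The start of Atr lies 725 bp from that of 1700065D16Rik, an antisense transcript that overlaps it. These neighbours, named for their position, had nearly the same scATAC values. In undiff. SpG Brca1 was at 79.3 and Nbr1 at 79.3, Chek2 at 56.8 and Hscb at 56.8, Atm at 53.5 and Npat at 53.4, and Atr at 27.1 and 1700065D16Rik at 26.8. In SpG Nfya-CKO, Brca1 was at 50.3 and Nbr1 at 49.8, and Rad9b and Vps29 both at 19.2. An accessibility difference at these 7 genes therefore cannot be assigned to the member or to its neighbour. By RNA, some of these neighbours lay on the same side as the member and others did not. From undiff. SpG to SpG Nfya-CKO, Wrap53 went from 0.295 to 0.478 per 10000, Npat from 0.985 to 1.17, Vps29 from 0.475 to 0.557 and 1700065D16Rik from 0.0244 to 0.0424, and Trp53, Atm, Rad9b and Atr were higher too. Nbr1 was at 1.65 and 1.61 where Brca1 was at 1.40 and 2.44, and 1300017J02Rik at 0.355 and 0.229 where Topbp1 was at 0.919 and 1.44. Hscb was at 0.494 and 0.395, and Chek2 at 0.679 and 0.683.

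Since NF-Y binds CCAAT, the RefSeq promoter windows of the members (GRCm38.p6, 250 bases before to 50 after the start) were searched for CCAAT on both strands. It was present in 6 of 10 members, Atm, Chek2, Trp53, Mdc1, Brca1 and Rad9b, and in 37.4% of 32851 windows of the genome. The scATAC ratio of these 6 ran from 0.612 to 0.833, and that of the 4 members without a match, Atr, Chek1, Topbp1 and Hus1b, from 0.823 to 1.12. The groups also differed in level, with a median scATAC value in undiff. SpG of 56.1 for the 6 and 28.9 for the 4, and the part of this in the ratios was not tested. This grouping was made after the ratios were seen and is a description. Over all genes the median ratio was 0.929 for 7948 genes with a match and 0.981 for 11094 without. On the nuclear scale the ranges of the members were 0.674 to 0.916 and 0.905 to 1.23. The medians over all genes were then 1.01 with a match and 1.07 without. GCGGGAA, searched as an E2F-like motif on both strands, occurred in Atm, Chek1, Chek2 and Mdc1 and in 4.6% of windows. GGGCGG, the GC box, occurred in Atm, Atr, Mdc1, Topbp1 and Rad9b and in 35.7% of windows, and TGACGTCA, the CRE motif, in 0 members and 1.79% of windows. No matches of different motifs overlapped in a member, and none shows that a factor is bound.

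Shown are the windows of the 3 members with the lowest scATAC ratio and of Chek1, the one member above 1 on the scale over all rows, as lower case with matches to CCAAT or GCGGGAA, on either strand, in capitals. They lie at chr17:35841248-35841547 on the plus strand (Mdc1), and on the minus strand at chr11:101551906-101552205 (Brca1), chr5:122354156-122354455 (Rad9b) and chr9:36726609-36726908 (Chek1).
Mdc1: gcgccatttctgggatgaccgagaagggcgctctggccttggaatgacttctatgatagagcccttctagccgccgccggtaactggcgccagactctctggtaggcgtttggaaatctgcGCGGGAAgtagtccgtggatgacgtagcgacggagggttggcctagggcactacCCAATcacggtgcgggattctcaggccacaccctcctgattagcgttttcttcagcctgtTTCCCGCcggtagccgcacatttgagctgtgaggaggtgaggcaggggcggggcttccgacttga
Brca1: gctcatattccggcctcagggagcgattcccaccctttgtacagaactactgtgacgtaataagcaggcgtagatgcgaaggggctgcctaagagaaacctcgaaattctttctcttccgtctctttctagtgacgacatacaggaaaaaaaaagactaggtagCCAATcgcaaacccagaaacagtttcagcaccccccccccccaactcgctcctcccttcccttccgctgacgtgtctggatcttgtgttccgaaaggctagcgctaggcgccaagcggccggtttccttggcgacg
Rad9b: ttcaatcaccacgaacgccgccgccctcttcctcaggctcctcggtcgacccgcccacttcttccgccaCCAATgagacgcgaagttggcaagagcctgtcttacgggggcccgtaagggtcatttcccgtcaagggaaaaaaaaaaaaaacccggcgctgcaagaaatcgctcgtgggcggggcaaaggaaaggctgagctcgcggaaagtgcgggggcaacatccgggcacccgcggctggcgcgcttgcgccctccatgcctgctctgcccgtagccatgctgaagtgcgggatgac
Chek1: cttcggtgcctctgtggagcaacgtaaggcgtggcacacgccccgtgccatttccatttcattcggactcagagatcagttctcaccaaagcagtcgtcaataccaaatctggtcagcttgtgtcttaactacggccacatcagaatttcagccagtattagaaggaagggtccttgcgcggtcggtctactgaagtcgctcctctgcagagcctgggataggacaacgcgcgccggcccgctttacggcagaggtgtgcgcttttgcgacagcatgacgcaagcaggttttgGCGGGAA
Counted from the transcription start, the CCAAT match begins at position -75 in Mdc1, -86 in Brca1 and -181 in Rad9b, while Chek1 holds none and has its GCGGGAA match at position 44. The Chek1 window is built on a RefSeq start 407 bp downstream of the annotated gene start and does not cover the latter, so its lack of a CCAAT match holds for this window only. The windows of the other 9 members cover the annotated gene start.

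Along the germ populations, the highest scATAC value of a member was 1.70 (Atr) to 2.66 (Hus1b) times its lowest over all rows and 1.35 (Atm) to 2.67 (Hus1b) times on the nuclear scale. For RNA it was 2.56 (Hus1b) to 16.6 (Chek2) times. On the scale over all rows, 7 of 10 members were lowest in L/Z/eP, as were 38.1% of genes, and mitochondrial rows held 63.8% of the signal there. On the nuclear scale 0 members and 3.75% of genes were lowest there. The order of populations is therefore given on the nuclear scale. On that scale ES, with only 124 scATAC-seq cells, held the lowest value of 4 members and the highest of 1. Atr was lowest in undiff. SpG at 45.6 and highest in D at 72.5, Mdc1 was at 93.5 in undiff. SpG and between 137.5 and 138.5 from diff. SpG to mP/lP, and Rad9b ran from 50.8 in undiff. SpG to 91.5 in ES. Mdc1 thus had its higher scATAC value in diff. SpG already, at 138.5, where its RNA was 1.07 per 10000, as against 3.17 in mP/lP.

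On the nuclear scale Chek1 and Chek2 followed their RNA most closely. Chek1 was at 59.1 in pL, 40.2 in mP/lP and 59.7 in RS, and the Spearman correlation of its RNA with accessibility over the 9 populations was 0.95 under either scaling. For Chek2, highest in eL/L/Z at 97.0 and lowest in RS at 49.7, it was 0.90. Brca1 was highest in diff. SpG at 189.9 and lowest in ES at 95.3, with 156.7 in RS and 150.4 in mP/lP, 2 populations whose RNA differed 4.06-fold. This nearness depends on the scale, since over all rows Brca1 was at 93.6 in RS and 59.6 in mP/lP, a ratio of 1.57. Trp53 was between 94.8 in ES and 141.7 in pL, Topbp1 between 61.1 in ES and 87.4 in diff. SpG, and Atm between 82.4 in RS and 111.2 in diff. SpG. Hus1b ran from 18.3 in pL to 48.9 in RS. Correlations of Atr and Mdc1 changed sign with the scaling, from -0.35 and -0.38 over all rows to 0.65 and 0.48 over nuclear rows. All of these correlations share libraries and depth and are descriptions over 9 points.

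**Figure D4:**
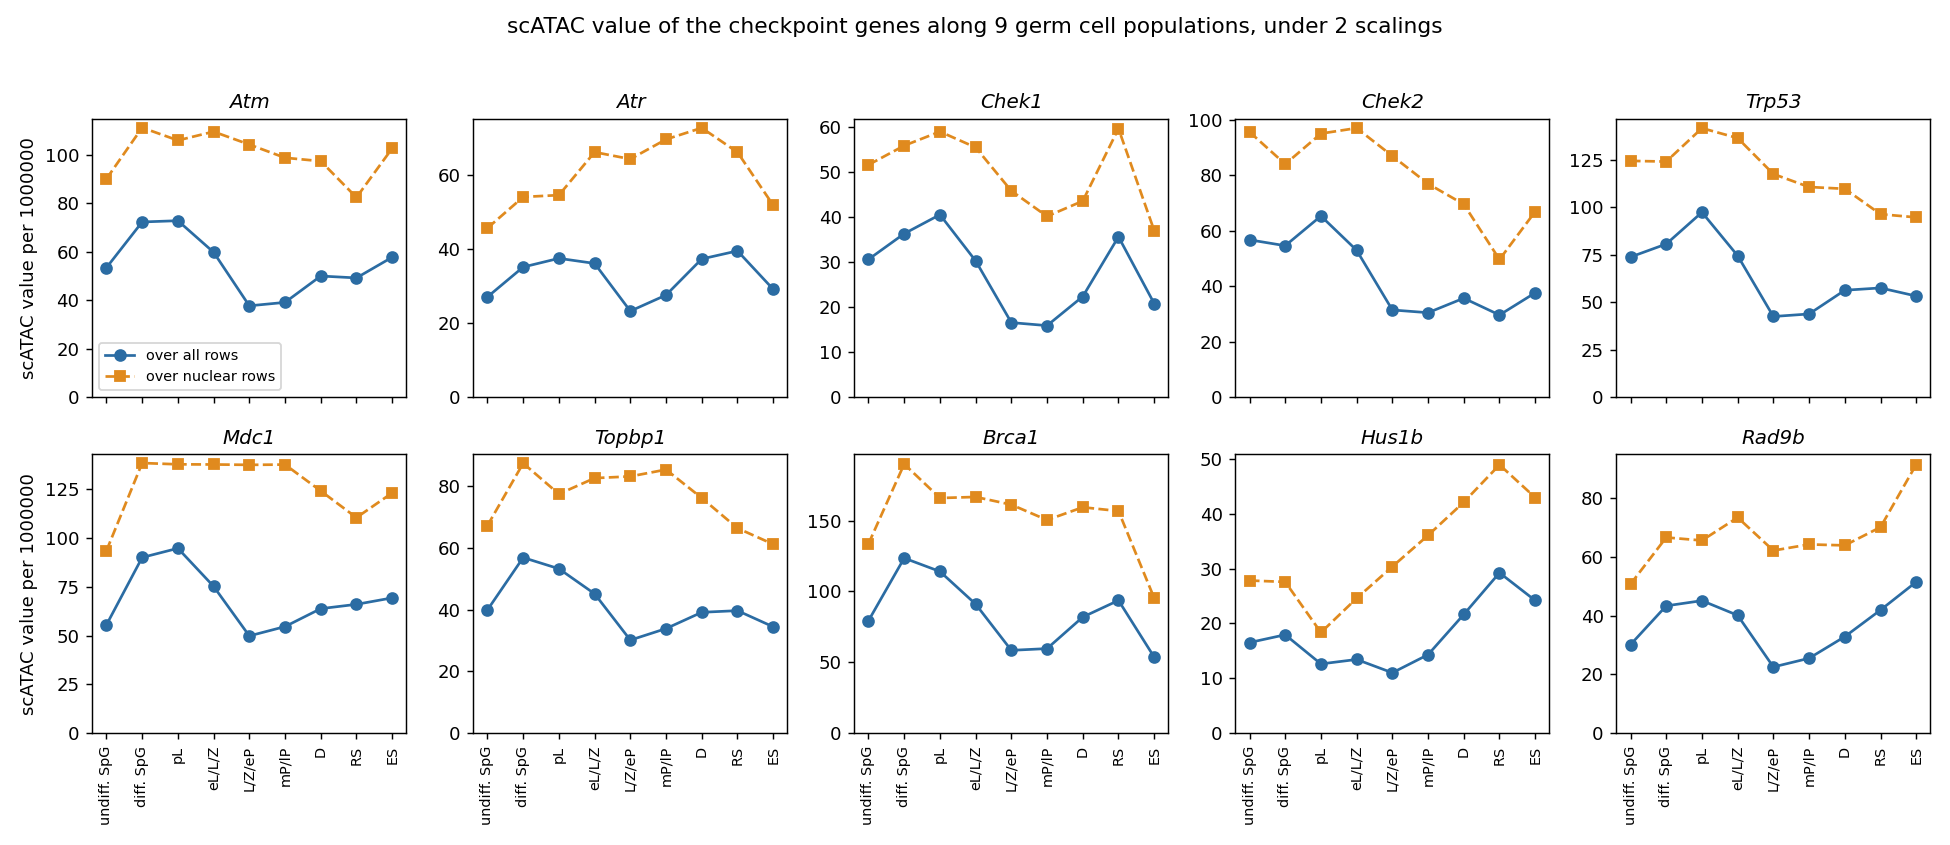
scATAC value per 1000000 (vertical axes, each from 0 on its own scale) of each checkpoint gene along the 9 germ populations, scaled over all rows (blue circles) or over nuclear rows (orange squares). The dip at L/Z/eP under the scale over all rows, where 7 of 10 genes are lowest (38.1% of all genes), is not the lowest point of any gene under the nuclear scale.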

How the data were processed

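Nuclei of whole testes were profiled by scRNA-seq and scATAC-seq on the BD Rhapsody system. Per the labels and the study's methods, the authors aligned RNA reads with STAR 2.7.10b and scATAC reads with BWA 0.7.12 to mm10, filtered cells and removed doublets, used Seurat 5.2.1 and ArchR 1.0.3, and named populations from marker genes. The authors deposited, for each cell, its count of UMIs or fragments with library and population, and 1 matrix per assay with a value for each gene and population on a natural log scale. The study's methods describe log normalization of UMI counts per 10000, merging of reads or fragments per cell type, and promoter accessibility as mean coverage around the transcription start, but do not say whether these matrices were made that way. In 11 of 13 populations the lowest RNA value above 0 equalled 1 UMI in the deepest cell in every digit kept. This is as for a mean over cells of UMIs per 10000. In mP/lP and D the lowest value was higher, at 3.17e-05 against 2.54e-05 and 6.19e-05 against 5.14e-05. 23 further columns were not used.

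Values were turned back with exp(value) - 1 in Python 3.11.15 (numpy 2.4.6, pandas 2.3.3, scipy 1.17.1), and scATAC values were scaled to a sum of 1000000. Poisson 95% intervals used the effective depth of a population, the squared number of cells over the summed reciprocal UMI counts. Methods were tested on simulated data, and the outcome is not given here. Log2 RNA ratios and 2-fold calls used value + 0.1 where the mean over populations reached 0.05, ratios with intervals no added value, and all-gene scATAC ratios value + 1. The members and gene lists were chosen with earlier results of these data known. Named were the members, Rad9a and Hus1, at most 3 genes per list and direction past 2-fold, the 3 nearest profiles per member, and genes that overlap or adjoin a member, added for their position. Libraries held 3746 to 18039 scRNA-seq cells and 30227701 to 64967271 UMIs. Pseudocounts, scale, control population, populations and correlation measure were varied.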

Additional observations from a re-analysis of the deposited data

Results flagged for a closer look

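The Cre/+ and Nfya-CKO scRNA-seq libraries had 3813 cell barcodes in common, whereas their scATAC-seq libraries had 92. This was a signal in the table of cells, outside the gene values. Of the 491 SpG Nfya-CKO cells, 175 shared their barcode with a Cre/+ cell, and 0 of them were the shallower of the pair (median 21471 against 2275 UMIs). In other somatic cells 3628 of 4633 cells of that library shared one, and 2647 were the shallower (median over the sharing cells 1209 against 9447 UMIs). Its part in the levels of the checkpoint genes was not tested, since the matrix holds 1 mean per population.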

How the results depend on the processing

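With 1 library per condition, no replicate could be left out. No paired analysis was possible because each group holds 1 library and no result comes from a test. The count of members at least 2-fold apart between SpG Nfya-CKO and undiff. SpG, 0 as reported and with 0.5 added, was 2 with 0.01 added, 2 against diff. SpG and 1 against pL. With 0.01 added, stage steps gave 1 member instead of 0 (L/Z/eP against eL/L/Z), 2 instead of 1 (mP/lP against L/Z/eP), 2 instead of 0 (D against mP/lP), 4 instead of 2 (RS against D) and 3 instead of 2 (ES against RS). With 0.5 added they gave 0 instead of 1 (diff. SpG against undiff. SpG, and mP/lP against L/Z/eP), 0 instead of 2 (RS against D) and 1 instead of 2 (ES against RS). The count between mP/lP and undiff. SpG, 8 as reported, was 4 with 0.5 added and 4 with L/Z/eP in place of mP/lP. The count between RS and mP/lP, 5 as reported, was 3 with 0.5 added. These alternatives on the spans were chosen after seeing the data. A larger added value pulls all ratios towards 1 by construction.

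The share of genes at least 2-fold apart between SpG Nfya-CKO and undiff. SpG was 7.17% as reported and 4.05% with no filter. The count of members highest before meiosis, 5 over germ populations (42.7% of genes), was 3 with SpG Nfya-CKO added (29.9%) and 3 over all 13 populations (21.5%). The log2 RNA ratio of SpG Nfya-CKO changed sign with the control for Atr (-0.53), Topbp1 (-0.031), Rad9b (-0.056) and Chek1 (-0.14) against diff. SpG, and for Atm (-0.0085), Topbp1 (-0.11) and Chek1 (-0.45) against pL, where Chek1 as reported was within counting error of 0, and the cause was not tested. Nuclear scaling or adding 1 left each scATAC ratio within 25% of the reported one, and 8 to 10 members were lower under the nuclear scale or the other controls. Few effective UMIs stand behind Chek2 in ES (10.2) and Hus1b in ES (11.3) and SpG Nfya-CKO (about 15).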
